A study of Drosophila melanogaster with 2 samples.

Results

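The vacuolar proton ATPase of Drosophila melanogaster was examined through its genes, defined as every gene whose FlyBase symbol begins with Vha. The rule found 33 genes among the 14001 to which the deposited transcripts were matched. RNA was measured by sequencing in 2 libraries of whole larvae in the third instar, kept at 25 °C. Both carried the allele f04929 of HP1c, a heterochromatin protein 1 gene, on both chromosomes (genotype HP1c f04929/HP1c f04929). These libraries are replicates of 1 group, and the other genotype named by the series design was not analysed here. The labels give neither the sex nor the number of larvae, and do not say whether the replicates came from separate cultures.

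The vacuolar ATPase is a rotary pump that uses ATP to move protons across membranes. Its V1 sector sits in the cytosol and hydrolyses ATP, its V0 sector sits in the membrane and carries the protons, and a peripheral stalk holds them together. The pump acidifies lysosomes and endosomes in all cells, loads synaptic vesicles, and in insects it also sits in the plasma membrane of epithelia such as the Malpighian tubule, where it energises ion transport. In the fly several subunits are encoded by more than one gene, and many of the additional copies are known for transcription in a restricted set of tissues, the testis among them.

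The 33 genes encode 14 subunits or accessory proteins. The V1 sector is covered by 13 genes, the V0 sector by 18 and the accessory protein AC45 by 2. Subunits B, C, E, G and H have a single gene each, and the other 9 have between 2 and 5. For each subunit 1 gene was designated the main paralog from its known broad or epithelial use, giving 14 main and 19 other paralogs. ATP6AP2, an accessory protein once named VhaM8.9, no longer carries the prefix and is counted among the related genes instead.

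Of the 33 genes, 32 reached 1 TPM (a relative transcript level corrected for transcript length) in both libraries, which is 97.0% of them, against 77.9% of all 14001 genes. Together they held 0.312% of all TPM in replicate 1 and 0.327% in replicate 2, a mean of 0.319% ± 0.0110 (SD, n = 2). They rested on 178701 and 248795 estimated reads. The libraries as a whole held 39745145 and 45177298 estimated reads, and entries annotated as rRNA took 7.81% and 1.42% of the TPM of replicates 1 and 2. All TPM includes these entries, and the order of the libraries in the share held by the 33 genes depends on them. HP1c, the gene carrying the allele, stood at 0.842 and 1.08 TPM, from 25 and 42 reads, and without the other genotype this does not check the label. With 1 group of 2 libraries no test between groups exists, so levels are given with their SD and with 95% intervals that cover counting error only.

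The main paralogs formed an abundant set and the other paralogs mostly a rare one, a split partly built into their designation from known broad use. Mean levels of the 14 main paralogs ran between 47.1 and 514 TPM, with a median of 181 TPM, and 13 of them were among the 1000 most abundant genes. The 19 other paralogs ran between 0.992 and 45.3 TPM, with a median of 4.23 TPM, and 0 of them were among those 1000. For comparison, the median over all genes was 8.20 TPM. In RNA from whole larvae, transcription in few cells and low transcription in many cells cannot be told apart. Of the other paralogs, 16 stood below 10 TPM, and the 3 that did not were Vha100-1, Vha100-5 and VhaM9.7-c.

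**Figure D1:**
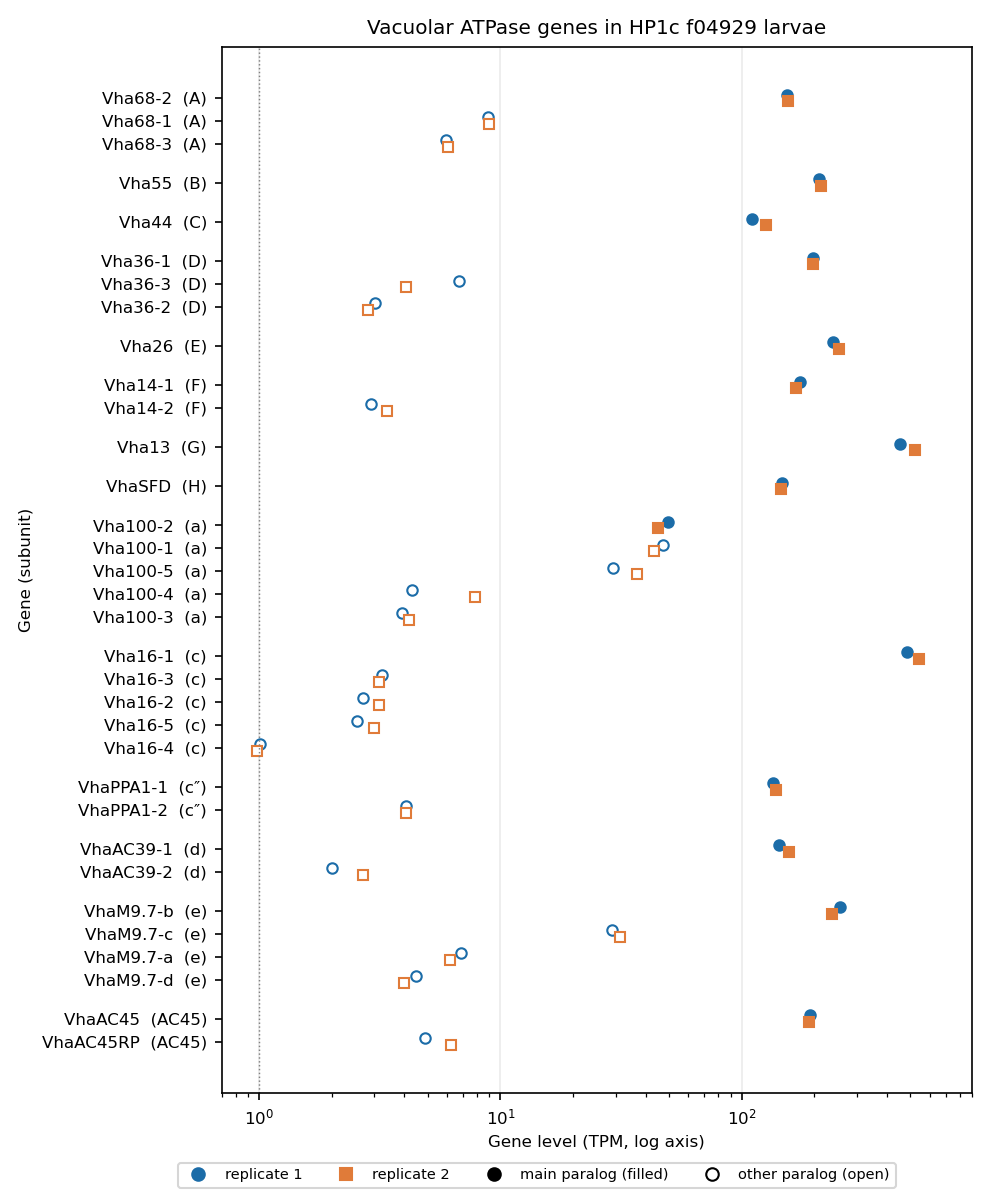
Level of each of the 33 genes in TPM (log axis) in replicate 1 (circles) and replicate 2 (squares), grouped by subunit, with main paralogs filled and other paralogs open. The dotted line marks 1 TPM. The main paralogs lie between 47.1 and 514 TPM on average, and 16 of the 19 other paralogs lie below 10 TPM.

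In the V1 sector, subunits A and B form the ring that hydrolyses ATP. Subunit A was supplied mainly by Vha68-2, which stood at 154 and 156 TPM in replicates 1 and 2. Its neighbour on 2L, Vha68-3, stood at 5.97 and 6.08 TPM, and Vha68-1, further along the same arm, at 8.88 and 8.96 TPM. Vha68-2 lies at 12974322 to 12978607 on the plus strand of BDGP6, 178 bases before Vha68-3 (12978786 to 12981293, plus strand), with no gene between them. Their levels differed 25.8-fold (95% interval 23.6 to 28.3) in replicate 1 and 25.6-fold (23.7 to 27.8) in replicate 2. Vha68-2 and Vha68-1 have coding sequences of the same length, 1842 bases without the stop codon, and Vha68-3 has a longer one of 2229 bases. Over both libraries Vha68-2 held 91.2% ± 0.0167 of the TPM of subunit A (SD, n = 2).

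Subunit B, the partner of A in the catalytic ring, has the single gene Vha55 (3R, 12623762 to 12627829, minus strand). It stood at 208 and 214 TPM in replicates 1 and 2. The sum over the 3 genes of subunit A was 169 and 171 TPM, so that B lay above A in both libraries.

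The central rotor of V1 consists of subunits D and F. Vha36-1 (2R, 15541435 to 15542498, plus strand) supplied subunit D at 198 and 197 TPM, and Vha14-1 (2R, 15679426 to 15680084, minus strand) supplied subunit F at 175 and 167 TPM. These were the 2 main paralogs whose leading transcript has a single exon. The other copies of subunit D were Vha36-2, at 3.02 and 2.82 TPM, and Vha36-3, at 6.76 and 4.07 TPM. The other copy of subunit F, Vha14-2, stood at 2.91 and 3.39 TPM. Vha36-1 held 96.0% ± 0.9497 of the TPM of subunit D and Vha14-1 98.2% ± 0.250 of that of subunit F (SD, n = 2).

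Subunits E and G make up the peripheral stalks, which resist the turning of the rotor. Vha13 (3R, 19643018 to 19644386, minus strand), the single gene of subunit G, stood at 452 and 521 TPM and was the most abundant V1 gene in both libraries. Vha26 (3R, 5591763 to 5595356, plus strand), the single gene of subunit E, stood at 239 and 253 TPM. The G gene was thus well above the E gene in both libraries, although both proteins are parts of the same stalk.

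Subunits C and H govern the joining and silencing of V1. Vha44 (2R, 16324813 to 16336637, minus strand), which encodes subunit C, stood at 110 and 126 TPM, the lowest summed level of the V1 subunits. Its exons overlap those of Hmgs on the opposite strand, and no source used here says whether the libraries keep strand, so its value may hold reads of Hmgs. VhaSFD (2L, 16722883 to 16727826, minus strand), which encodes subunit H, stood at 146 and 145 TPM.

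In the V0 sector the rotating ring is built from copies of subunit c together with c″. Vha16-1 (2R, 6625242 to 6633090, minus strand) supplied subunit c at 486 and 542 TPM and was the most abundant of the 33 genes in both libraries. The other 4 genes of subunit c were all rare. Vha16-3 stood at 3.23 and 3.15 TPM, Vha16-2 at 2.70 and 3.13 TPM and Vha16-5 at 2.54 and 2.98 TPM. Vha16-4 was the rarest of all 33 genes. It had 15 reads, or 1.01 TPM (95% interval 0.563 to 1.66), in replicate 1 and 19 reads, or 0.978 TPM (0.589 to 1.53), in replicate 2, and was the 1 gene that missed 1 TPM in a library. Vha16-1 exceeded Vha16-4 483-fold (293 to 862) and 554-fold (355 to 921) in replicates 1 and 2, the widest gap between paralogs of one subunit.

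The rare genes of subunit c are compact. Vha16-2, Vha16-4 and Vha16-5 each have a leading transcript of 1 exon, against 4 exons in the leading transcript of Vha16-1. Vha16-3 and Vha16-2 lie side by side on 3L, 985 bases apart on the plus strand with no gene between them, and their levels lay within each other's counting intervals in both libraries. Vha16-2, with 43 and 65 reads in replicates 1 and 2, overlaps an antisense RNA, asRNA:CR46049. The coding sequences of Vha16-1, Vha16-2 and Vha16-3 are of almost the same length, at 477, 474 and 474 bases, that of Vha16-4 has 465 and that of Vha16-5 has 579 bases. Most of the Vha16-1 transcript lies outside the coding sequence, with a 3′ untranslated region of 2228 bases in each of its annotated isoforms.

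The ring subunit c″ was supplied by VhaPPA1-1 (3R, 14902330 to 14904061, minus strand), at 134 and 139 TPM. VhaPPA1-2 lies 2052 bases away on the same strand, with 1 gene between them, and stood at 4.08 and 4.07 TPM, a 32.9-fold (26.2 to 41.8) and 34.3-fold (28.1 to 42.2) gap. Their coding sequences have the same length of 636 bases. VhaPPA1-2 has a single exon and overlaps CG3817 on the opposite strand.

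Subunit d couples the rotor to the ring. VhaAC39-1 (X, 3880748 to 3882967, plus strand) supplied it at 143 and 158 TPM, while VhaAC39-2 stood at 2.003 and 2.71 TPM. Both have coding sequences of 1050 bases. The main gene held 98.5% ± 0.216 of the TPM of subunit d (SD, n = 2).

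Subunit e, a small membrane protein, was shared more widely. VhaM9.7-b (3L, 21539862 to 21541215, plus strand) stood at 257 and 238 TPM and held 85.8% ± 0.922 of the subunit's TPM (SD, n = 2). VhaM9.7-c, a gene of 1 exon on 3L, stood at 28.9 and 31.3 TPM and held 9.74% and 11.2%. VhaM9.7-a and VhaM9.7-d were rare, at 6.84 and 6.18 TPM and at 4.46 and 3.997 TPM. VhaM9.7-b exceeded VhaM9.7-c by 8.88-fold (8.21 to 9.61) and 7.60-fold (7.11 to 8.13) in replicates 1 and 2, one of the smaller gaps among the 33 genes.

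Subunit a holds the channels through which protons enter and leave the ring and is known, in other species as well as the fly, as the subunit whose isoforms direct the pump to different membranes. It was the 1 subunit with no dominant gene in these larvae. Vha100-2, designated the main paralog, stood at 49.4 and 44.8 TPM. Vha100-1, known in the fly for its role in neurons and at synapses, stood at 47.2 and 43.5 TPM. Vha100-5 stood at 29.3 TPM in replicate 1 and 36.9 TPM in replicate 2. Vha100-2 therefore held 36.8% and 32.7% of the TPM of subunit a, Vha100-1 35.2% and 31.7%, and Vha100-5 21.9% and 26.9%.

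Vha100-2 and Vha100-1 were hardly separable. Vha100-2 exceeded Vha100-1 by 1.05-fold (95% counting interval 1.01 to 1.09) in replicate 1 and 1.03-fold (0.994 to 1.07) in replicate 2. Their mean levels, 47.1 ± 3.22 and 45.3 ± 2.60 TPM, differed by less than the SD of either gene over the libraries (n = 2). Both genes were lower in replicate 2, so these SDs do not measure the spread of the difference within a library. Vha100-1 overlaps Alg13 on the opposite strand, and Vha100-5 overlaps an antisense RNA, asRNA:CR44144. Neuronal markers, which mark the cells Vha100-1 is best known from, were all above 1 TPM, the 6 genes summing to 71.5 and 79.9 TPM, led by Syt1 at 37.1 and 38.6 TPM. Their part in the level of Vha100-1 was not tested.

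The other a genes were Vha100-4 and Vha100-3. Vha100-4, known for acid production by the copper cells of the fly midgut, stood at 4.28 and 7.85 TPM in replicates 1 and 2. Vha100-3 stood at 3.90 and 4.16 TPM and has a single exon. Vha100-4 (3R, 18386841 to 18389805, minus strand) lies 517 bases from Vha100-2 (18390323 to 18399169, minus strand) with no gene between them, and its exons overlap those of cona on the opposite strand. Summed over all 5 genes, subunit a reached 134 and 137 TPM, close to the sums for subunits c″ and d.

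The accessory protein AC45, a membrane glycoprotein that associates with V0, was supplied by VhaAC45 (2R, 9207561 to 9209774, plus strand) at 193 and 190 TPM. VhaAC45RP, the related gene, stood at 4.89 and 6.27 TPM. The main gene held 97.5% and 96.8% of their joint TPM.

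**Figure D2:**
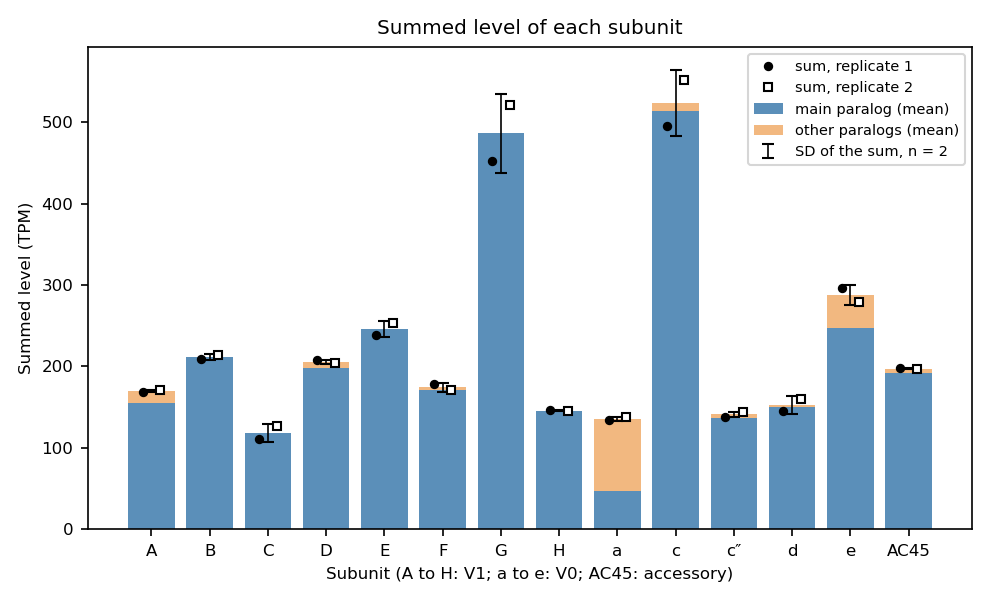
Summed level of each subunit in TPM as the mean of 2 libraries, with the main paralog in blue and the other paralogs stacked in orange. Points are the sums in each library and bars the SD (n = 2). Subunits c and G stand highest, at means of 524 and 486 TPM, and subunit a is the one supplied mostly by genes other than the designated main paralog.

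Summed by subunit, levels were uneven. Between replicates 1 and 2 some sums shifted, as from 110 to 126 TPM for C, and others hardly did, as from 169 to 171 TPM for A. The V1 subunits ran between 118 and 486 TPM, with a median of 190 TPM, and the V0 subunits between 136 and 524 TPM, with a median of 153 TPM. Subunits c and G stood above the rest in both libraries, at 524 ± 40.6 and 486 ± 48.6 TPM (SD, n = 2). Subunit e followed at 288 ± 12.6 TPM and E at 246 ± 9.80 TPM. The lowest were C at 118 ± 11.4 TPM and a at 136 ± 2.23 TPM. Subunits A, B, E and G are known to be present in several copies per pump, and c forms a ring of many copies.

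The designated main paralog was the most abundant gene in 9 of the 9 subunits with several genes. In subunit a its margin over Vha100-1 was only 1.05-fold and 1.03-fold in replicates 1 and 2. Since the designation rested on known broad or epithelial use, this count is not an independent result. Its share of the subunit's TPM had a median over those subunits of 97.0% in replicate 1 and 96.8% in replicate 2. Of the 19 pairs of main and other paralog, 15 differed by more than 10-fold in both libraries. The exceptions were Vha100-1, Vha100-5 and Vha100-4 in subunit a and VhaM9.7-c in subunit e.

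**Figure D3:**
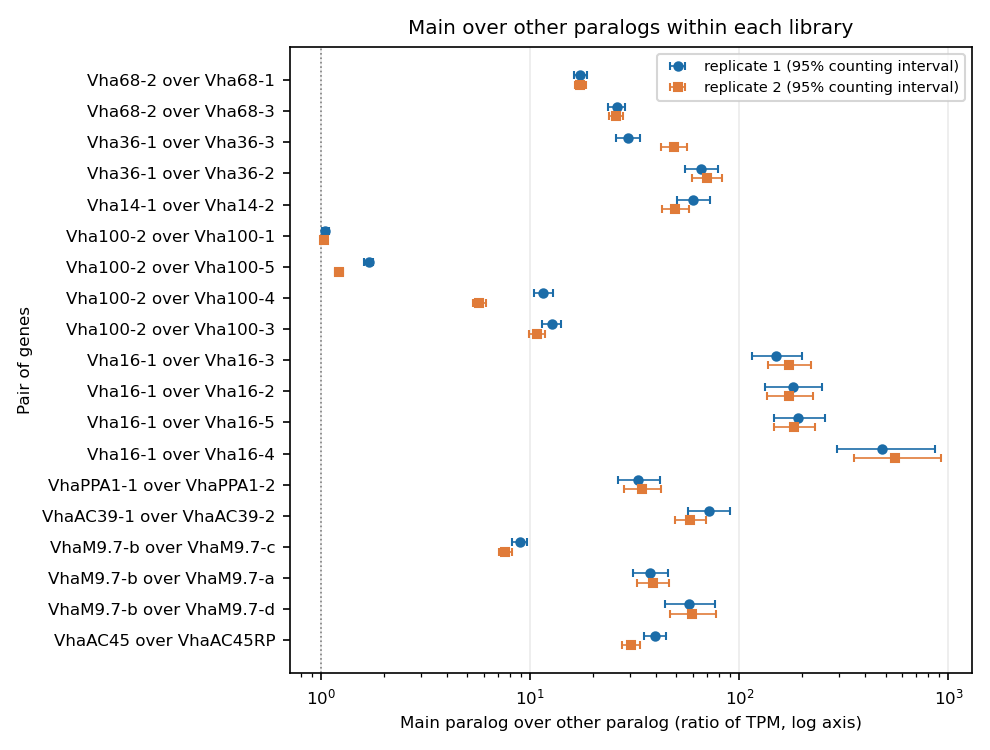
Ratio of the main paralog's TPM to that of each other paralog (log axis) in replicate 1 (circles) and replicate 2 (squares), with 95% counting intervals. The ratios run from about 1 for Vha100-1 to 483 and 554 for Vha16-4.

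How reads were shared between copies could alter the levels of rare paralogs. The estimated reads of 15 of the 19 other paralogs were whole numbers to within 0.01 in both libraries, although the tables hold many fractional values. The exceptions were Vha68-1, Vha36-3, Vha100-5 and VhaM9.7-c. All 14 main paralogs had fractional sums in at least one library, the single genes of subunits B, C, E, G and H among them. A fractional sum can arise where reads were divided with another gene or with a transcript not used here. A whole sum does not show that no reads were ambiguous between copies. By structure, 7 of the 19 other paralogs and 2 of the 14 main paralogs had a leading transcript of a single exon. Exons overlapping another gene were found for 5 of the 19 other paralogs and 1 of the 14 main paralogs, Vha44.

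Since many additional copies are known from the testis, testis markers were read beside them. Of 10 such genes, 8 reached 1 TPM in both libraries, summing to 298 and 290 TPM over all 10, with none at 0. The most abundant were Mst84Da at 81.4 and 84.6 TPM, Mst87F at 84.6 and 74.5 TPM and betaTub85D at 47.1 and 44.2 TPM. The summed level of these markers was thus similar in the libraries. The part of testis RNA in the low levels of the additional copies was not tested.

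The replicate libraries were then set against each other to show how far each gene varied within the group. Ratios are of estimated reads scaled with TMM factors, replicate 2 over replicate 1. None of the 33 genes differed by 2-fold or more with a mean of at least 10 reads and a counting interval that excluded 1, against 5.42% of the 12206 genes that could be called. Over all genes the calls were uneven in direction, with 501 higher in replicate 1 and 161 higher in replicate 2. The reason was not tested. At this depth 16 of the 33 had an interval that excluded 1, against 53.6% of all genes, since small ratios are resolved when reads are many. The 16 were 10 of the 14 main paralogs and 6 of the 19 other paralogs. The median log2 ratio was 0.06 over the 33 genes, with 23 of them above 0, and 0.02 over all genes, of which 52.9% were above 0. The quartiles over all genes were -0.19 and 0.19. Scaling by library size alone would raise every log2 ratio by 0.19 and put 32 of the 33 genes above 0, all but Vha36-3, so directions within that shift depend on the scaling. With the lower quartile at -0.19, that shift would put most of all genes above 0 as well.

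The main paralogs kept close to each other. Their ratios ran between 0.929 for Vha100-2 and 1.16 for Vha13. The 4 most abundant were Vha16-1, with a ratio of 1.14 (95% interval 1.13 to 1.16), Vha13, VhaM9.7-b with 0.935 (0.901 to 0.971) and Vha26 with 1.08 (1.06 to 1.10). VhaAC39-1 had a ratio of 1.13 (1.09 to 1.16) and Vha44 of 1.12 (1.09 to 1.15). VhaSFD, VhaAC45 and Vha36-1 had ratios of 1.01, 1.01 and 1.01. Only Vha100-2, VhaM9.7-b and Vha14-1 of the 14 had ratios below 1, and with library size alone none of the 14 did.

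The other paralogs ranged more widely, between 0.613 and 1.87, and the extremes were 2 genes past 1.5-fold. Vha100-4 was higher in replicate 2, with 391 and 948 reads in replicates 1 and 2 and a ratio of 1.87 (95% interval 1.66 to 2.11). Scaling by library size alone raised it to 2.13, past 2-fold, a bound that 5.49% of all genes passed under that scaling. Vha36-3 was higher in replicate 1, with 242 and 192 reads and a ratio of 0.613 (0.504 to 0.744). Past 1.5-fold in either direction lay 12.2% of all genes. Among the rest, Vha100-5 had a ratio of 1.29 (1.22 to 1.35), VhaAC45RP of 1.29 (1.10 to 1.51) and VhaAC39-2 of 1.37 (1.03 to 1.84).

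Taken against the main paralog of the same library, which restates these ratios without a scaling factor, the counting intervals of the 2 libraries failed to overlap for 5 of the 19 pairs. The same count was not made over other pairs of genes, so it is not read as particular to these pairs. Vha100-2 exceeded Vha100-4 by 11.5-fold (10.4 to 12.8) in replicate 1 and 5.71-fold (5.33 to 6.12) in replicate 2, and Vha100-5 by 1.68-fold (1.61 to 1.77) and 1.21-fold (1.17 to 1.26). Vha36-1 exceeded Vha36-3 by 29.2-fold (25.7 to 33.4) in replicate 1 and 48.4-fold (41.98 to 56.2) in replicate 2. VhaAC45 exceeded VhaAC45RP by 39.4-fold (34.9 to 44.8) and 30.3-fold (27.6 to 33.4). The fifth pair was VhaM9.7-b and VhaM9.7-c, given above, and the intervals of the other 14 pairs overlapped. These intervals cover counting error only and give no measure of the spread between larvae.

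Midgut markers were read beside Vha100-4. Of 7 midgut genes, 6 had log2 ratios above 0, with a median of 0.50, and their summed level was 14956 TPM in replicate 1 and 21023 TPM in replicate 2. None was at 0, and 0 of the 7 passed 2-fold. The gene lab, which specifies copper cells, stood at 1.35 and 1.90 TPM, while Ptx1 stood at 12.9 and 11.5 TPM. The part of midgut RNA in the ratio of Vha100-4 was not tested. Markers of the Malpighian tubule, where the pump is abundant, summed to 490 and 523 TPM, led by Uro at 445 and 470.4 TPM. Of these 6 genes, 4 had log2 ratios above 0, with a median of 0.23. Their ratios ran from 0.751 for NtR to 1.64 for SecCl. Salivary gland markers were above 0 for 5 of 5 genes, with a median log2 ratio of 0.97 and 2 past 2-fold. The 4 fat body markers had a median of -0.06 with 2 above 0, and their ratios ran from 0.573 for Fbp1 to 1.07 for Fbp2. The part of these tissues in the ratios of the pump genes was not tested.

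**Figure D4:**
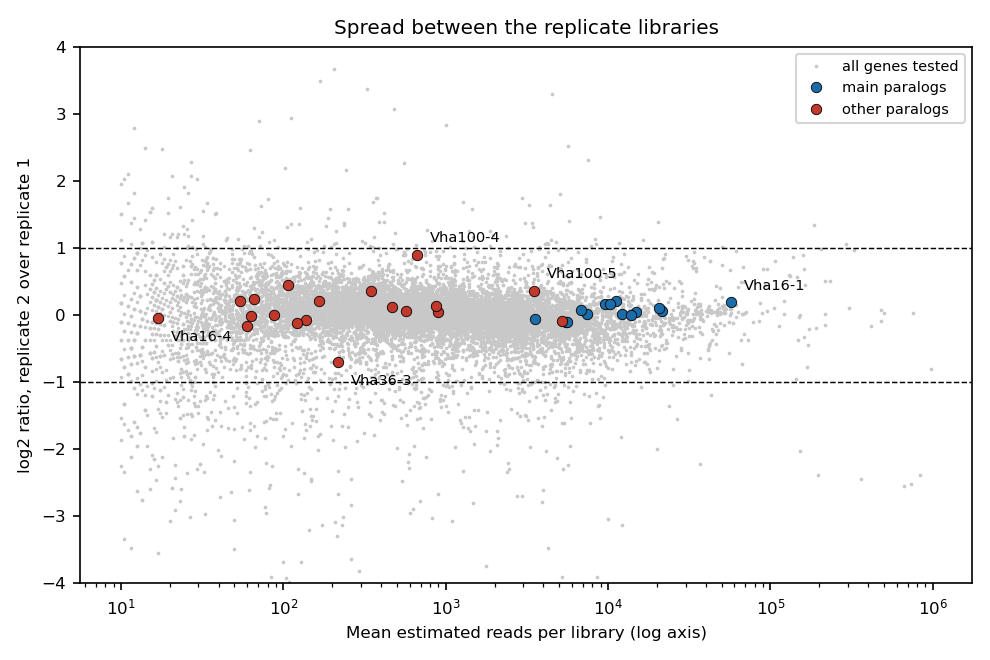
Log2 ratio of replicate 2 over replicate 1 against the mean of estimated reads (log axis) for all genes tested (grey), main paralogs (blue) and other paralogs (red), with dashed lines at 2-fold. Of all genes, 67 lie beyond the plotted range of 4. All 33 genes lie between the dashed lines, with Vha100-4 and Vha36-3 nearest to them.

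The annotated isoforms of the 33 genes number 74, and 14 genes have only 1. Only 5 genes have isoforms with different coding sequences, namely Vha44, VhaSFD, Vha100-1, Vha14-2 and VhaAC45RP. Of the 19 genes with several isoforms, 11 are described here. They have at least 2 isoforms of 10% or more in both libraries, or their leading isoform differed between the libraries, and 6 of them are main paralogs. Isoform levels are estimates that share out reads between overlapping transcripts, and the counting intervals do not cover that step. Of 65 isoforms with enough reads, 6 differed by 2-fold or more, against 19.5% of all isoforms tested.

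Vha44 was the abundant gene with the most even split. Its isoform RA reached 51.3 TPM in replicate 1 and 66.3 TPM in replicate 2. RC reached 56.6 and 59.1 TPM, so RC led in replicate 1 and RA in replicate 2. RA carries a coding sequence of 1164 bases and a 3′ untranslated region of 147 bases, and RC a coding sequence of 1326 bases and a 3′ untranslated region of 1153 bases. RF, with the longest coding sequence of 2508 bases, stood at 2.32 and 0.970 TPM and was one of the 6 isoforms past 2-fold. RB and RE had 0 reads in both libraries.

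VhaSFD isoforms are also annotated with different coding sequences. RA, with a coding sequence of 1404 bases, held 83.1% and 83.2% of the gene's TPM in replicates 1 and 2. RB, with 1626 bases, held 13.0% and 13.9%. Their shares were nearly equal in the libraries.

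Vha100-1 has 10 annotated isoforms with 5 different coding sequences, and 5 of the isoforms had 0 reads in both libraries. RC, with a coding sequence of 2565 bases, held 50.9% and 68.0% of its TPM. RK, with 2508 bases, held 30.8% and 20.4%. RF stood at 3.58 and 1.11 TPM and was also past 2-fold.

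The remaining abundant genes differed only outside the coding sequence. In Vha16-1, RA stood at 322 TPM in replicate 1 and 363 TPM in replicate 2, and RB at 115.3 and 112 TPM. These isoforms have 5′ untranslated regions of 125 and 90 bases. Vha55 RB held 75.2% and 78.0% of its gene, RC 12.2% and 12.5%, and RA 12.7% and 9.49%. Vha55 RC has a 3′ untranslated region of 460 bases, against 1005 bases in RB and RA. Vha100-2 RB held 81.1% and 74.2%, and VhaAC45 RB 81.9% and 74.9%, of the TPM of their genes.

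Among rare genes, only VhaAC45RP had a leading isoform that differed between the libraries, on estimates from few reads. RA stood at 3.64 and 1.86 TPM and RB at 1.24 and 4.41 TPM in replicates 1 and 2. RA thus held 74.6% in replicate 1 and 29.7% in replicate 2, from 196 and 133 reads. RB, with 65 and 302 reads, was the isoform of this gene past 2-fold. The coding sequences are 1152 bases in RA and 1269 in RB. In VhaM9.7-a, RC held 55.8% and 58.8%, in Vha14-2 RC held 83.4% and 80.6%, and in Vha36-3 RB held 87.4% and 86.7%. The other isoforms past 2-fold were minor ones of abundant genes, namely VhaPPA1-1 RB at 0.618 and 2.17 TPM, Vha68-2 RC at 0.587 and 1.25 TPM and Vha68-2 RD at 1.06 and 0.245 TPM.

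**Figure D5:**
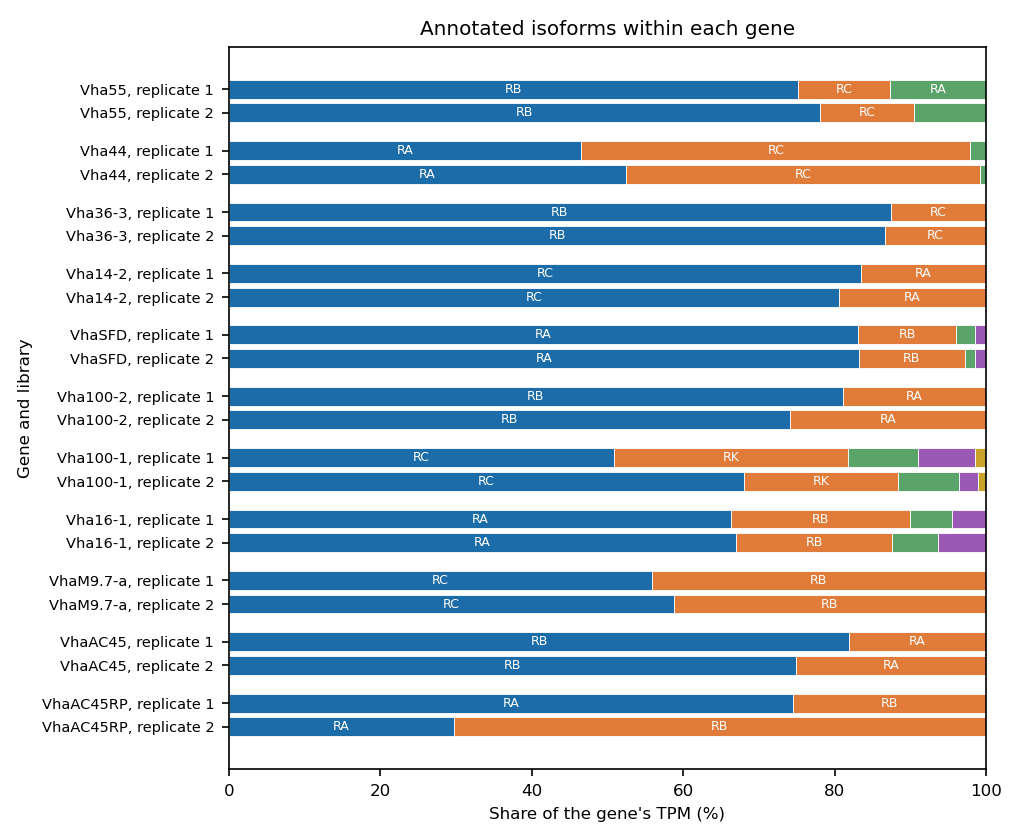
Share of each gene's TPM (%) held by its annotated isoforms in each library, for the 11 genes described by isoform, with isoforms of 10% or more labelled. Colours rank isoforms by their mean share within a gene. In VhaAC45RP, RA leads in replicate 1 and RB in replicate 2, and Vha44 is split almost evenly between RA and RC.

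Genes that work with the pump were measured beside it. Of 6 assembly and regulatory genes all reached 1 TPM in both libraries. Their median log2 ratio was -0.10, and 0 passed 2-fold. ATP6AP2, the accessory protein also called the prorenin receptor, stood at 187 and 200.4 TPM, near the level of VhaAC45. The others were much lower. CG7071 stood at 25.8 and 23.5 TPM. Mitf, a transcription factor known to activate vacuolar ATPase genes in the fly, stood at 24.8 and 25.5 TPM.

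The compartments the pump serves were also represented. Of 15 lysosomal genes listed, 14 were measured and Trpml was not analysed here. All 14 reached 1 TPM, with a median log2 ratio of -0.11 and 0 past 2-fold. The proteases cathD and CtsL1 stood at 1215 and 1095 TPM and at 869 and 739 TPM, and CtsB at 765 and 705 TPM, above Vha16-1 in both libraries. Of 10 genes of amino acid sensing on the lysosome, all reached 1 TPM and 0 passed 2-fold, with a median log2 ratio of -0.08. The scaffold genes Lamtor4, Lamtor3 and Lamtor1 led at 80.3 and 75.9, 75.02 and 67.8, and 66.7 and 69.2 TPM in replicates 1 and 2.

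The 12 genes of epithelial ion transport all reached 1 TPM, with a median log2 ratio of -0.06 and 0 past 2-fold. The sodium pump gene Atpalpha led at 112 and 107 TPM, followed by its partner nrv1 at 95.4 and 90.2 TPM. Irk2, an inward rectifier potassium channel gene, stood at 41.1 and 34.1 TPM. The exchangers Nha1 and Nha2, held to work beside the proton pump in the tubule, stood at 27.7 and 26.8 TPM and at 4.17 and 4.21 TPM, and are named for that role, after their values were seen.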

How the data were processed

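Per the file headers, the authors deposited for each library 1 table of FlyBase transcripts with length, effective length, TPM and estimated counts (reads). No source used here names the quantifier, the genome build, the annotation or the strandedness. Per the submitters' processing notes, the tools include STAR 2.5.2, HTSeq 0.6.1, Picard, FastQC and bcl2fastq 2.18.0.12, with no role stated.

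Of 30119 transcripts, 29992 were matched by identifier to the Ensembl release 115 annotation of BDGP6, with equal lengths for 99.8%. The other 127, holding 0.0981% and 0.110% of the reads, were not used. Transcript values were added up within each gene. Estimated counts were rounded and scaled with TMM factors (edgeR 4.0.16, R 4.3.3). A difference was called at a mean of 10 reads, 2-fold and an exact Clopper-Pearson interval excluding 1. This rule was run on simulated Poisson counts without added spread between libraries, the setting its intervals assume. That run tests the code and not how the rule behaves on these libraries. Log2 ratios had 0.5 reads added. Level intervals are exact Poisson. All intervals cover counting error only. PCR copies could not be told from separate molecules, so even that error may be understated. All 33 genes are named, isoforms by the 10% rule given above, and of each pathway list the 3 most abundant genes. The members and lists were chosen with earlier results of these data known. Alternatives were other scalings, thresholds, units and single libraries.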

Additional observations from a re-analysis of the deposited data

How the results depend on the processing

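No paired analysis was possible because the libraries form a single group. Of the 33 genes, 33 reached a threshold of 0.5 TPM and 20 a threshold of 5 TPM. The shares of all genes at these thresholds were not computed. With each library alone the genes detected ranged from 32 to 33, their share of TPM from 0.312% to 0.327% and the median share of the main paralog from 96.8% to 97.0%. The share of TPM was 0.335% with rRNA entries left out and 0.5002% as a share of estimated reads, where long transcripts weigh more. By reads, the median share of the main paralog was 96.1%. Taking the most abundant paralog as the main one, a setting chosen after seeing the data, picked the same genes, so the median by TPM could not change. The count of genes 2-fold apart, 0 under TMM, became 1 with library size alone (Vha100-4), 2 at a 1.5-fold threshold (Vha100-4 and Vha36-3) and 6 isoforms with single transcripts. It was 0 with DESeq2 size factors, with no filter, at 100 reads, at 4-fold and with TMM factors without rRNA entries, a setting added after the data were seen. Library size alone raised every log2 ratio by 0.19, which put 32 of 33 genes above 0 in place of 23. The lower quartile over all genes was -0.19, so the same shift put most of all genes above 0 as well. Depth limits the rarest genes, such as Vha16-4 with 15 and 19 reads.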
